A study of Drosophila melanogaster with 3 samples.

Results

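The nuclear genes for the oxidative phosphorylation system were read for binding of CG4820, a protein profiled as a transcription factor, in embryos of Drosophila melanogaster. Members were the protein-coding genes whose symbol begins with ND-, Sdh, UQCR-, COX or ATPsyn, which gave 88 of 13945 protein-coding genes: 40 of complex I, 8 of complex II, 9 of complex III, 16 of complex IV and 15 of complex V. All samples carried the same transgene, CG4820 with GFP at its C terminus, and chromatin was immunoprecipitated with an anti-GFP antibody from whole 0 to 16 h embryos, male and female pooled. There were 3 biological replicates from 1 fly line and no second condition, so every comparison below is between genes.

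Oxidative phosphorylation passes electrons from NADH and succinate through complexes I to IV of the inner mitochondrial membrane and uses the resulting proton gradient to make ATP at complex V. Most subunits are encoded in the nucleus and the rest in mitochondrial DNA, and the nuclear genes are scattered over all chromosome arms. In Drosophila many subunits also have a second gene, and a number of these copies are known for expression in the testis, while the general copy serves the rest of the body. The 24 members whose symbol ends in L, with or without a digit, are called L paralogs here, and the other 64 general copies. No member symbol ends in T, and ND-MNLL was kept among the general copies because the L belongs to the name of the subunit. ChIP-seq holds no expression values, so the testis-type label could not be checked in these data. The general copies include Sdhaf3, an assembly factor of complex II that is no subunit. They also include ND-MLRQ (NDUFA4 in human), counted under complex I by its name although that subunit is now placed in complex IV.

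A gene was called bound when the summit of a peak in the optimal list lay within 500 bp of any of its annotated transcription start sites. The optimal list holds 4876 dm6 peaks, drawn by the submitters from a pooled candidate list of 21656 peaks and replicate candidate lists of 26597, 27004 and 26145 peaks in replicates 1, 2 and 3. The candidate lists reach down into background by design, so a candidate is a weaker statement than an optimal peak. Signal is the deposited enrichment value on a scale of its own in each list, and it was therefore turned into ranks, with rank 1 the highest.

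Genomic sequence around the summits of 6 bound members is shown first, picked among windows with no annotated exon base. ND-ASHI, SdhC, COX8 and ATPsynC have the strongest such peaks of complexes I, II, IV and V. ND-51 is a further complex I gene, and UQCR-6.4L has the lone peak at an L paralog. COX5A and COX5B in complex IV, and ATPsynCF6 and ATPsynE in complex V, had stronger peaks, but their windows overlap exons. Each is 121 bases of dm6 (RefSeq), centred on the optimal summit, holds no annotated exon base, and is written 5′ to 3′ on the strand of the gene. Capitals mark any match to the DRE, the core of the nuclear respiratory gene element, the M1BP core, the E-box or the CRE, whose letters are given further on.
ND-ASHI (chrX:6679296-6679416, minus strand): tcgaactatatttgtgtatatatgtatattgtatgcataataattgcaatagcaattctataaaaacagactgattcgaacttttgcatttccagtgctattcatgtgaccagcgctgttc
ND-51 (chr2L:6062819-6062939, minus strand): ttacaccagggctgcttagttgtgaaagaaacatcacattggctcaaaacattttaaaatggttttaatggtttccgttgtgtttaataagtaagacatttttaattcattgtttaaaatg
SdhC (chr3R:11209909-11210029, minus strand): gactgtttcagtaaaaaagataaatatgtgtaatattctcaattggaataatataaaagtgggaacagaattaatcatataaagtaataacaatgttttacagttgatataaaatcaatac
COX8 (chr3L:21539470-21539590, minus strand): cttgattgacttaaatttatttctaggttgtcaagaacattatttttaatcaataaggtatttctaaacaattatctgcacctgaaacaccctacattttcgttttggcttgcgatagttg
ATPsynC (chr3R:31219678-31219798, minus strand): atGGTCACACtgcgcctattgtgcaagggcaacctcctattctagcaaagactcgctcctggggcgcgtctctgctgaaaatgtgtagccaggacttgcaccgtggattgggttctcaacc
UQCR-6.4L (chr3L:16566292-16566412, plus strand): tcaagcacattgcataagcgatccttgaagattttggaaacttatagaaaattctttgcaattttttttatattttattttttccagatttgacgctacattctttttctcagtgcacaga
Only the ATPsynC stretch among these 6 holds a match, an M1BP core at its far upstream edge. The other 5 hold none, which says only that these letters are not in these windows.

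A second set of sequences is shown because it marks where respiratory genes stood apart from other genes in the reference sequence, not in binding. These are short stretches of 28 bases around the core of the nuclear respiratory gene element, downstream of the start. The core, in capitals, is read as TTACATAA, its reverse complement TTATGTAA, TTACGTAA or TTATATAA. The first gene below is an L paralog, the next 6 are bound general copies and the last 5 are general copies that were not bound.
COX7AL2 (chr2L:2192828-2192855, minus strand, 168 bp downstream): tattcagcagTTACATAAgagacctagg
ND-23 (chr3R:15836894-15836921, minus strand, 209 bp downstream): gcgagtgaggTTATGTAAgcttatgtca
ND-51 (chr2L:6062500-6062527, minus strand, 243 bp downstream): tgccatcaaaTTATGTAAtttttgcgca
ND-MNLL (chrX:7893574-7893601, minus strand, 210 bp downstream): ctcgtttttaTTACGTAAtgcggcaaaa
COX7B (chr3L:17425684-17425711, plus strand, 220 bp downstream): accttaaaaaTTACATAAtgtggataag
ATPsynCF6 (chr3R:23355842-23355869, minus strand, 208 bp downstream): aacaattgtaTTACATAAcctttttaag
ATPsynE (chr3R:14327258-14327285, plus strand, 203 bp downstream): ggtcggacaaTTACATAActtgaagaag
ATPsynbeta (chr4:1032088-1032115, plus strand, 237 bp downstream): aaaaaaaataTTACATAAcaattttgaa
ATPsynB (chr3L:9730219-9730246, plus strand, 233 bp downstream): acatcgtggtTTATGTAAtcaccaccca
ATPsynD (chr3R:19095202-19095229, plus strand, 215 bp downstream): ttgaaaaaaaTTACATAAtttttgcgag
ATPsynG (chr2L:10976168-10976195, minus strand, 217 bp downstream): aatcgcaaaaTTATGTAAtgatcacttt
ATPsyndelta (chrX:10213187-10213214, plus strand, 230 bp downstream): acctacaaagTTACATAAtttggttatt
The distances in these lines run from the gene's main start, the start shared by most of its annotated transcripts, to the middle of the core. The general copy sites were picked as examples from 200 to 300 bp downstream, so their narrow range follows from that choice. Over all members, the 50 downstream sites lay 19 to 457 bp from the main start, and 25 sites fell in that interval.

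CG4820 had an optimal peak at 20 of the 88 respiratory genes, or 22.7%, against 19.9% of all protein-coding genes. The share of respiratory genes was therefore close to the background. Among the weaker candidates the respiratory share was above the background: 51 members, 58.0%, had a pooled candidate, against 44.9% of all protein-coding genes. Replicate 1 gave candidates at 57 members (64.8%, against 46.7% of all genes), replicate 2 at 53 (60.2%, against 48.8%) and replicate 3 at 45 (51.1%, against 44.2%). A candidate in every replicate was found at 39 members, 44.3%, against 33.0% of all genes. With each replicate reduced to its 4876 highest peaks, 15 members, 17.0%, had one in every replicate, against 15.0% of all genes. The excess over the background thus lay among candidates and shrank at the level of strong peaks. No test was made of these shares, since genes are not replicates.

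The strongest peaks of the 20 bound members were 20 different peaks, with a median signal of 234.2 in the optimal list, against 191.8 over all bound protein-coding genes. SdhC, COX8 and ATPsynCF6 each had 2 optimal summits within 500 bp of a start, and values given for them are of the stronger. Their signals ran from 101.2 to 503.9, and 12 of them stood in the stronger 2438 peaks of that list. The summit lay upstream of the nearest own start at 17 of 20 members (85.0%, against 90.0% of bound protein-coding genes), at a median distance of 119 bp, against 152 bp. By annotation, 12 summits were intergenic, 4 were in introns and 4 in 5′ UTRs.

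**Figure D1:**
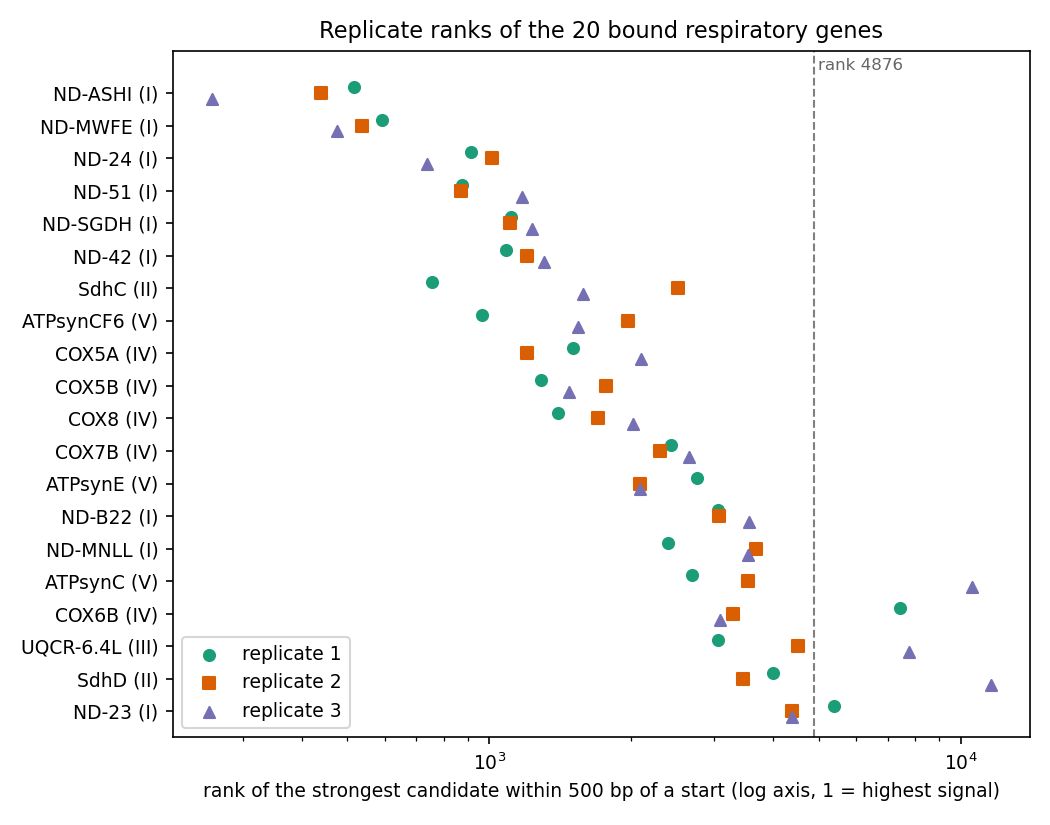
Rank of the strongest candidate peak within 500 bp of a start in each replicate list (x axis, log scale, 1 is the highest signal), for the 20 bound members in order of their optimal rank (y axis, complex in brackets). The dashed line marks rank 4876, the size of the optimal list; points to its right are ATPsynC, UQCR-6.4L and SdhD in replicate 3 and COX6B and ND-23 in replicate 1.

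The plot of replicate ranks shows where the replicates parted, as at SdhC among the stronger peaks and at ATPsynC, COX6B, UQCR-6.4L and SdhD among the weaker ones. All 20 bound members had a candidate in each replicate. Within the top 4876 peaks were 18 of them in replicate 1, 20 in replicate 2 and 17 in replicate 3. A replicate peak supported the optimal peak at this depth of the list in all 3 replicates for 15 members and in 2 replicates for 5. These are 75.0% and 25.0% of the bound members, against 76.0% and 17.9% of all bound protein-coding genes. Over members with a candidate in both lists, Spearman's rho of the ranks was 0.846 for replicates 1 and 2 (48 members), 0.786 for replicates 1 and 3 (39 members) and 0.846 for replicates 2 and 3 (41 members), over genes from the same libraries. 

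Complex I takes electrons from NADH and passes them to ubiquinone, and 9 of its 40 genes were bound (22.5%), near the 19.9% of all protein-coding genes. Its core subunits, which carry the electron path, were bound in 3 of 7 cases and its accessory subunits in 6 of 27 (22.2%), while none of its 6 L paralogs was bound. ND-24, an iron-sulfur subunit beside the flavin site, ranked 916, 1015 and 739 in replicates 1, 2 and 3, with an optimal signal of 332.6 and a summit 70 bp inside the gene. ND-51, the subunit that binds flavin and NADH, ranked 875, 871 and 1175, with an optimal signal of 325.7. In the optimal list these 2 peaks ranked 844 at ND-24 and 878 at ND-51. The ND-24 peak also counts for corolla, and the ND-51 summit was nearer to the start of CG13994 (110 bp) than to its own (122 bp). The third bound core gene, ND-23, an iron-sulfur subunit further along the path, stood at the very end of the list, with rank 4855 of 4876 and a signal of 101.2. Its replicate ranks were 5384, 4383 and 4383, and its summit was 111 bp from the start of spn-E and 191 bp from its own.

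The highest peak at any respiratory gene was that of ND-ASHI (NDUFB8 in human), an accessory subunit, with a signal of 503.9, rank 368, and replicate ranks of 516, 439 and 258. Its summit lies 238 bp upstream of a start of ND-ASHI and 284 bp upstream of one of Fum1, which encodes the fumarase of the citric acid cycle on the opposite strand. Both genes have further starts, so the single peak counts for a complex I subunit and a citric acid cycle enzyme at once. ND-MWFE (NDUFA1 in human) followed with a signal of 411.9 and replicate ranks of 592, 538 and 474. Its summit was 23 bp from the start of TppII, a peptidase gene, and 198 bp from its own. ND-SGDH (NDUFB5 in human) had a signal of 280.4 and replicate ranks of 1109, 1107 and 1228. ND-42 (NDUFA10 in human) had a signal of 265.5 and replicate ranks of 1082, 1199 and 1303, and its summit was 36 bp from the start of Cchl, which encodes the enzyme that attaches heme to cytochrome c. For ND-SGDH and ND-42 the 3 replicates gave nearly the same rank. Lower in the list were ND-B22 (NDUFB9 in human), with a signal of 148.0, and ND-MNLL (NDUFB1 in human), with 143.7. Their replicate ranks were 3052, 3070 and 3558 for ND-B22 and 2391, 3669 and 3536 for ND-MNLL.

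Complex II is succinate dehydrogenase, which belongs to the citric acid cycle as well as to the respiratory chain. Of its 8 genes 2 were bound (25.0%, against 19.9% of all protein-coding genes), those of both membrane anchors. Neither of the catalytic subunit genes was bound. SdhC had a signal of 255.9 with replicate ranks of 756, 2511 and 1581. Replicate 1 placed it well above replicate 2. SdhD had a signal of 109.4, and its replicate ranks were 4002, 3451 and 11564, so that replicate 3 placed it far below the others. SdhA, the flavoprotein, had a candidate in replicate 1 alone, at rank 24366, and its nearest optimal summit was 872 bp away. SdhB, the iron-sulfur protein, had none in any list.

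Complex III, which passes electrons from ubiquinol to cytochrome c, had optimal peaks at 0 of its 6 general copies and pooled candidates at 5 of them. Over the general copies of all complexes the shares were 29.7% and 75.0%, and over all protein-coding genes 19.9% and 44.9%. UQCR-14 came closest, with a pooled rank of 5660 and replicate ranks of 4595, 7122 and 6658. The only bound gene among its 9 was the L paralog UQCR-6.4L (11.1%, against 19.9% of all protein-coding genes).

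Complex IV is cytochrome c oxidase, and 5 of its 16 genes were bound (31.2%, against 19.9% of all protein-coding genes). All were general copies: COX5A, COX5B, COX6B, COX7B and COX8, nuclear-encoded subunits around the catalytic centre that mitochondrial DNA encodes. COX5A had a signal of 248.6 and replicate ranks of 1503, 1200 and 2096. COX5B had a signal of 238.4 and replicate ranks of 1286, 1769 and 1473. COX8 had a signal of 230.0 and replicate ranks of 1400, 1700 and 2014. These 3 peaks were of nearly equal height, while COX7B followed at 185.3 with replicate ranks of 2428, 2299 and 2649. COX6B was weaker, at 131.0, and uneven: its ranks were 7422 in replicate 1, 3279 in replicate 2 and 3084 in replicate 3. Of the 3 general copies not bound, COX7A and COX7C had pooled candidates at ranks 13091 and 11010, and COX4 had none.

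Complex V is the ATP synthase, and 3 of its 15 genes were bound, a share level with the 19.9% of all protein-coding genes. ATPsynCF6, coupling factor 6 of the peripheral stalk, had a signal of 248.7 and replicate ranks of 963, 1966 and 1541. ATPsynE, a small membrane subunit, had a signal of 166.0 and replicate ranks of 2752, 2082 and 2083. ATPsynC, which forms the rotating ring in the membrane, had a signal of 132.0 and replicate ranks of 2692, 3531 and 10546, with replicate 3 well below the others. The catalytic subunit gene ATPsynbeta headed the members that were not bound. Its pooled signal was 99.8 at rank 4955, with ranks of 2933 and 4644 in replicates 1 and 2 and no candidate in replicate 3. The other members with the highest pooled signals below the optimal list were COX7AL2 at 94.3, ND-B17 at 92.5, UQCR-14 at 89.8 and ND-30, a quinone-module subunit of complex I, at 87.5. ND-B17 (NDUFB6 in human) ranked 4516, 5335 and 5122 in the replicates and ND-30 ranked 6816, 6981 and 7253.

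**Figure D2:**
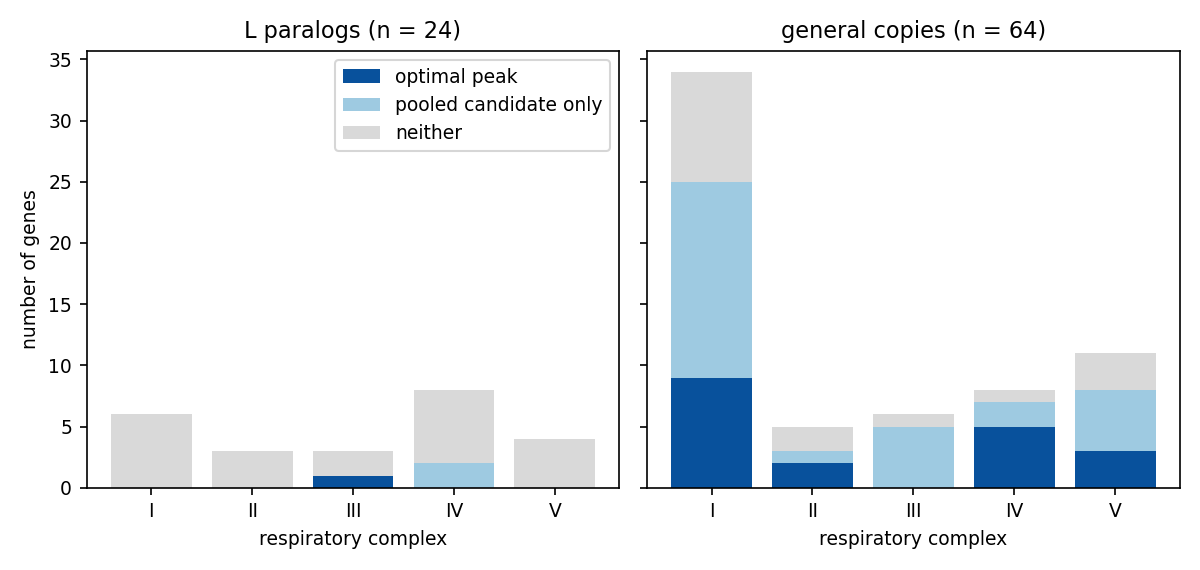
Number of genes (y axis) per respiratory complex (x axis), split by whether the gene had an optimal peak, a pooled candidate only, or neither, for the 24 L paralogs (left) and the 64 general copies (right). Bound L paralogs number 1 and bound general copies 19, and most L paralogs had neither kind of peak.

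L paralogs and general copies stood apart. An optimal peak was found at 1 of 24 L paralogs (4.17%) and at 19 of 64 general copies (29.7%), with all protein-coding genes at 19.9%. A pooled candidate was found at 3 of 24 L paralogs (12.5%) and at 48 of 64 general copies (75.0%), with all genes at 44.9%. The L paralogs thus lay below the share of all genes and the general copies above it, for both lists, as the chart by complex shows. The general copies bound were 9 of 34 in complex I, 2 of 5 in complex II, 0 of 6 in complex III, 5 of 8 in complex IV and 3 of 11 in complex V.

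The bound L paralog, UQCR-6.4L, encodes a copy of a small complex III subunit. Its peak had a signal of 112.8, and its replicate ranks were 3050, 4520 and 7741. The summit was 398 bp upstream of the gene, the farthest of all bound members, inside an annotated intron. This peak was lost when replicate 1 or replicate 2 was left out and support asked of the other two, which left 0 bound L paralogs. The general copy UQCR-6.4 was not bound and had a pooled candidate at rank 18243. Of the other L paralogs, COX7AL2 had a pooled candidate at rank 5309 with replicate ranks of 6783, 2939 and 4974, and its nearest optimal summit, with a signal of 173.6, was 511 bp from a start, just beyond the limit of 500 bp. COX5BL, which neighbours COX5B, had a pooled candidate at rank 9887 and none in replicate 3.

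An L paralog and its general copy could be paired within the members in 20 cases, over 18 general copies. In 0 pairs were both bound. In 1 pair the paralog alone was bound, in 6 pairs the general copy alone, and in 13 neither. Those 6 pairs hold the general copies ATPsynCF6, COX5B, ND-24, SdhC and ND-51, which has a pair of L paralogs. By pooled candidates, both copies had one in 3 pairs, the paralog alone in 0, the general copy alone in 13 and neither in 4. Of the 3 pairs with both, the L paralog held the higher pooled rank at UQCR-6.4L and COX7AL2, and the general copy did at COX5B. The remaining general copies with a pooled candidate were ATPsynbeta, UQCR-14, UQCR-11 at rank 7162, ND-20 at rank 7286, ND-49 at rank 10167, ATPsynG at rank 10998, COX7C, COX7A and UQCR-6.4. Those with none were COX4, ND-B14.5A, SdhA and SdhB. Reads of near-identical copies can be shared between genes or dropped, and the treatment of such reads was not given in the sources used here.

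Many respiratory genes start back to back with another gene, so that 1 summit can lie within reach of both. An opposite-strand gene starting 0 to 500 bp upstream was found at 3 of 24 L paralogs (12.5%) and 36 of 64 general copies (56.2%), with all protein-coding genes at 29.4%. Among members with such a neighbour 16 of 39 were bound (41.0%), and among members without one 4 of 49 (8.16%). Over all protein-coding genes the shares were 38.3% with and 12.2% without such a neighbour. For general copies alone the counts were 16 of 36 with and 3 of 28 without, and for L paralogs 0 of 3 with and 1 of 21 without. By optimal peaks, the share of respiratory genes was thus slightly above that of all genes with such a neighbour and below it without one.

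**Figure D3:**
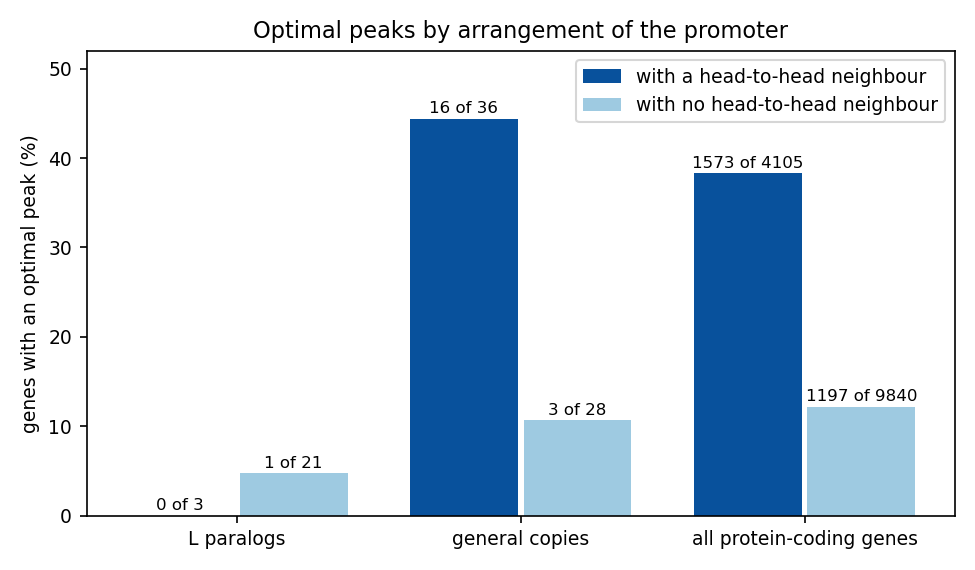
Share of genes with an optimal peak (y axis, %) for genes with and with no opposite-strand gene starting within 500 bp upstream, among L paralogs, general copies and all protein-coding genes. The number bound of the number of genes stands above each bar. General copies stand at 44.4% (16 of 36) with and 10.7% (3 of 28) without such a neighbour, and all genes at 38.3% and 12.2%.

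Arrangement and copy type moved together. Among genes without a head-to-head neighbour, pooled candidates were found at 3 of 21 L paralogs (14.3%) and 16 of 28 general copies (57.1%), with all such genes at 34.9%. Among genes with such a neighbour, pooled candidates were found at 0 of 3 L paralogs and 32 of 36 general copies (88.9%), with all such genes at 69.0%. L paralogs had a mean of 1.17 annotated starts and general copies 1.56. The part of arrangement and of the number of starts in the difference between L paralogs and general copies was not tested.

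Of the 16 bound members with a head-to-head neighbour, 12 had the summit between the closest pair of starts (75.0%, against 70.1% of the bound genes of all kinds in such pairs). Within that pair, 8 had it nearer to the start of the neighbour, against 741 of 1573 such genes of all kinds. Further starts are not counted in this. ND-ASHI is thus among the 8 although its own start was the nearest, and COX5A is not although a start of glo was nearer. Over all 20 bound members, the own start was the nearest, alone or tied, in 12 of the 20, against 70.2% of all bound protein-coding genes. The summit at ATPsynCF6 was 17 bp from the start of Sec13, a gene of the vesicle coat and nuclear pore, and 197 bp from its own. The COX5B summit was 59 bp from the start of IFT52, a gene of intraflagellar transport, and 239 bp from its own. The COX8 summit was 83 bp from its own start and 332 bp from that of VhaM9.7-b, a subunit gene of the vacuolar proton pump. At COX6B, the summit lay 48 bp from its own start and 48 bp from the nearest of its neighbours, which include Rpp20 and CG33932. The remaining neighbours of bound members were corolla, CG13994, RhoGAP68F, Tctp, glo, Sec3, Afti, p115 and spn-E. Which gene of such a pair a peak acts on cannot be told from binding data. Bound without a head-to-head neighbour were ND-B22, ATPsynC, UQCR-6.4L and SdhD, all in the weaker part of the list.

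Motifs were searched on both strands in the window from 250 bp before to 50 bp after the main start. The DRE (TATCGATA), bound by Dref, was in 10.2% of members, against 9.24% of all protein-coding promoters. The core of the M1BP motif (GGTCACAC) was in 17.0% of members, against 7.79%, with 4.17% of L paralogs and 21.9% of general copies holding it. It was in 4 of 20 bound members and 11 of 68 not bound. The E-box CACGTG was in 4.55% of members, against 4.24% (7.95%, against 12.8%, within 500 bp to either side), the CRE (TGACGTCA) in 0 members, against 0.437%, and the initiator letters TCAGT in 39.8%, against 52.2%. Within 50 bp of the summits, 0 of the 20 member peaks held a DRE, an M1BP core, an E-box or a CRE, against 3.57%, 1.44%, 1.02% and 0.232% of the 2156 optimal peaks at protein-coding promoters. The core of the nuclear respiratory gene element was there in 2 of 20 member peaks, against 2.69%. Both matches are in complex I genes, ND-MNLL and ND-SGDH, 36 and 32 bp from the summit. Member summits had a median A+T content of 71.8%, against 67.3% at those promoter peaks. Member peaks here are the strongest of each gene, while the 2156 include every optimal peak within 500 bp of a start.

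The nuclear respiratory gene element, a sequence known in Drosophila from nuclear genes of the respiratory chain, was where members stood apart, in the sequence rather than in the binding. Since the element is known from genes of this kind, an excess of its core at members is not an independent result. In the promoter window its core was in 7.95% of members, against 5.10% of all promoters. Within 500 bp to either side of the main start it was in 49 of 88 members (55.7%), against 14.7% of all protein-coding genes. The excess was downstream of the start, where 52.3% of members held it, against 5.73% of all genes, while upstream the shares were 11.4% and 9.54%. Between 200 and 300 bp downstream the core was in 27.3% of members, against 1.33% of all genes. That interval held 25 sites, 20 of them in introns and 10 of them in complex V genes.

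**Figure D4:**
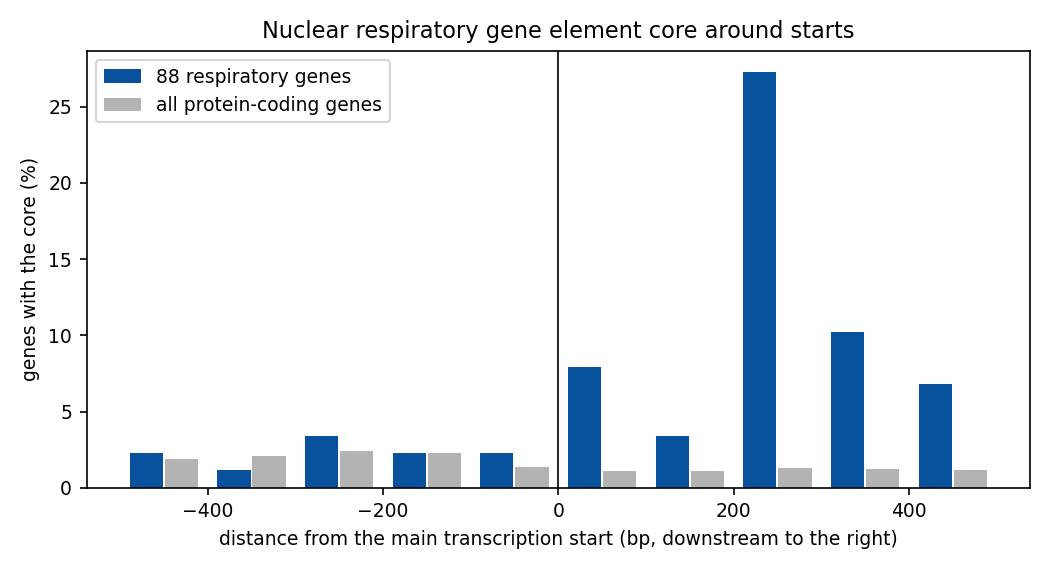
Share of genes with the core of the nuclear respiratory gene element (y axis, %) in steps of 100 bp around the main transcription start (x axis, bp), for the 88 respiratory genes and all protein-coding genes. The members' share is highest between 200 and 300 bp downstream, at 27.3%, against 1.33% of all genes.

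The core followed the copy type. It was within 500 bp of the start in 2 of 24 L paralogs (8.33%), COX6AL2 and COX7AL2, and in 47 of 64 general copies (73.4%). All 11 general copies of complex V held it, as did 24 of 34 in complex I, 4 of 5 in complex II, 3 of 6 in complex III and 5 of 8 in complex IV. Of the 60 sites, 33 had the form TTACATAA or TTATGTAA, 13 the form TTACGTAA and 14 the form TTATATAA. The form TTACGTAA was within 500 bp of 13.6% of members, against 1.48% of all genes. Downstream sites lay at a median of 232 bp, with 32 of 50 in introns and 15 in 5′ UTRs.

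CG4820 summits and these cores were mostly apart. Bound members held a core in 16 of 20 cases and members not bound in 33 of 68. Among general copies alone it was 16 of 19 bound (84.2%) and 31 of 45 not bound (68.9%), while over all protein-coding genes it was 16.7% of those bound and 14.1% of those not bound. Of the 15 bound members with a core downstream of the main start, 12 had the summit upstream of that start. This position is not particular to them. Summits lay upstream of the nearest own start at 85.0% of all bound members and 90.0% of bound protein-coding genes. The 19 sites in bound members lay at a median of 366 bp from the optimal summit, and only 2 lay within 50 bp. At ND-51 the summit was 122 bp upstream of the start and the core 243 bp downstream, and at ATPsynCF6 they were 197 bp upstream and 208 bp downstream. ATPsynbeta, ATPsynB, ATPsynD, ATPsynG and ATPsyndelta, whose sites are printed above, have the core and were not bound.

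**Figure D5:**
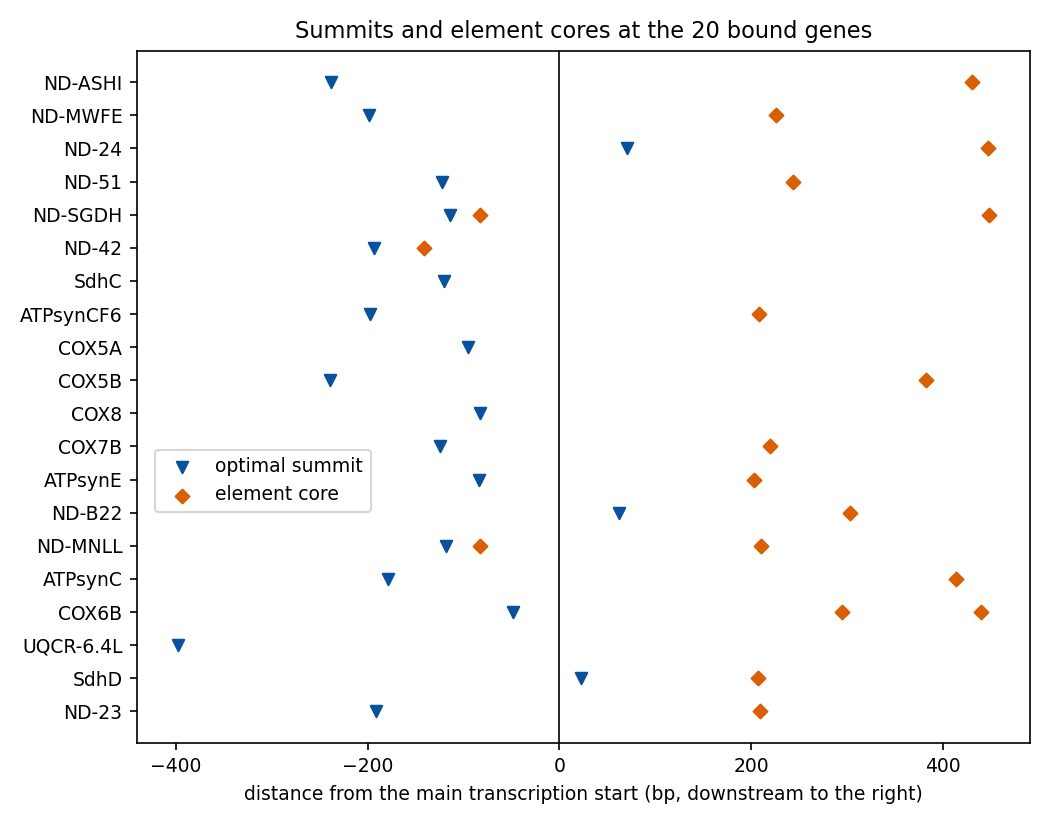
Position of the optimal CG4820 summit and of each element core relative to the main transcription start (x axis, bp) at the 20 bound members (y axis, in order of optimal rank). Most summits lie left of the start and most cores right of it, with 12 of the 15 members that have a downstream core showing the summit upstream. Over all bound protein-coding genes 90.0% of summits lay upstream of the nearest own start.

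Genes that work with the respiratory complexes under other symbols were counted as lists by function. Over all of them 26 of 65 matched genes were bound (40.0%), against 19.9% of all protein-coding genes. The lists were chosen by hand with earlier results of these data known, so this share describes the listed genes only. Their promoter arrangement was not counted. At 15 of the 26 the gene's own start was the nearest to the summit (57.7%, against 70.2% of all bound protein-coding genes). At the other 11 another gene's start was nearer: levy (wmd), Cyt-c-d (CG31808), fsd (Pex13), ttm50 (CG2712), Ttc19 (Acn), Fum1 (ND-ASHI), Idh3a (CoRest), mAcon1 (CG43345 and CG43346), ERR (Atg18a), Dref (RpL13) and Coq4 (CG32176). Of 10 further subunit and cytochrome c genes, 4 were bound: Cyt-c-d, the cytochrome c gene known for its role in the testis, with a signal of 621.4, blw, the alpha subunit of the ATP synthase, with 387.3, levy with 168.4 and cype with 116.8. The genes levy and cype encode the general copies of COX6AL, COX6AL2 and COX6CL, which had no optimal peak. Of 10 genes on the assembly factor list 5 were bound. CIA30, an assembly factor of complex I, led them with a signal of 1036.2, rank 85 and replicate ranks of 100, 88 and 90. The other 4 were CG13850 at 334.1, Ttc19 at 308.2, fsd at 260.0 and ttm50 at 105.2, with replicate ranks of 3434, 4942 and 6612 for ttm50. The list was drawn up by name, and the roles of fsd and ttm50 as assembly factors were not checked against a source.

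The counts of the remaining lists stand beside the 19.9% bound among all protein-coding genes. Of 15 genes of the citric acid cycle and pyruvate entry, 8 were bound. All 3 subunit genes of the NAD-dependent isocitrate dehydrogenase were among them, Idh3g with a signal of 687.8 and replicate ranks of 212, 161 and 225, Idh3b with 167.8 and Idh3a with 104.5. The others were Fum1, mAcon1 (aconitase) at 284.2, Pdhb at 177.9 and muc at 119.6 of the pyruvate dehydrogenase complex, and Ogdh at 173.1. Replicate support was weaker at Ogdh, with ranks of 3387, 19114 and 7861 and a summit 486 bp upstream, and at Idh3a, with ranks of 5182, 4458 and 6306. Carriers and coenzyme Q genes were bound in 4 of 12 cases: Coq4 at 783.3, with replicate ranks of 146, 158 and 126, Coq7 at 385.3, Coq3 at 239.5 and porin, the outer membrane channel, at 104.0. The replicate ranks of porin were 2626, 5074 and 7375. Genes for the upkeep and transcription of mitochondrial DNA were bound in 2 of 11 cases, mtSSB at 337.2 and mTerf5 at 153.5, which was not above the background share. Of 7 regulators linked to respiratory genes, 3 were bound: M1BP at 371.5, ERR at 295.3 and Dref at 182.3. The highest of these peaks, at CIA30, Coq4, Idh3g and Cyt-c-d, were all stronger than any at a member, whose highest signal was 503.9.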

How the data were processed

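CG4820-GFP chromatin was sonicated to 200 to 800 bp per the labels' protocols. The authors deposited peak lists on dm6 for each of the 3 replicates, a pooled list and an optimal list derived from these by the irreproducible discovery rate, per the deposited README files. The values used are the deposited signal of each peak and its summit offset. The signal is on each list's own scale, so ranks were compared, never values between lists. The control is not used here, and neither the aligner nor the peak caller and its limit was given in the sources used here. Read totals are not used here, so the depth is unknown and counting error of reads is left out. The replicates come from 1 fly line, so their spread may be largely technical.

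Genes and starts came from Ensembl release 115, with transposable elements and pseudogenes left out. Sequences came from the RefSeq dm6 genome, in which 99.8% of 30593 annotated start codons read ATG. Named genes are all bound members, the 5 members with the highest pooled signal among the rest, L paralogs with a pooled candidate, general copies of L paralogs, and bound genes of the function lists. Of 71 listed symbols 65 matched, and Sdhaf3, being a member, was left out of the lists. Members and lists were chosen with earlier results of these data known. Counts are descriptions with no test. A replicate supports an optimal peak where one of its 4876 highest peaks overlaps it by 1 bp or more. SciPy 1.17.1, pandas 2.3.3, matplotlib 3.10.9 and NumPy 2.4.6 were run under Python 3.11.15, and the steps were tested on simulated peaks. Alternatives were other distances, the nearest start only, midpoints, overlap, stronger peaks, replicate support, leaving out each replicate, a wider motif window and any start of a gene.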

Additional observations from a re-analysis of the deposited data

How the results depend on the processing

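The 20 bound members (22.7%, against 19.9% of all protein-coding genes) became 12 when each peak counted for its nearest start only. Their share was then 13.6%, below the 14.5% of all genes. In the 2438 strongest peaks of the optimal list they were also 12 (13.6%, against 11.4%). General copies fell to 11 (17.2%) and 12 (18.8%). Under the nearest start complex I had 4 and complex IV 3. Among those strongest peaks complex II had 1, complex V 1, complex III 0 and the L paralogs 0. With support required in every replicate complex II had 1, complex III 0 and the L paralogs 0. The single bound L paralog, also the single bound gene of complex III, was lost at 250 bp (0 in both), and L paralogs had 2 at 1000 bp and 2 by overlap. Leaving out each replicate, with support asked of the other 2, gave 15 to 18 members, 15 to 17 general copies, 0 to 1 L paralogs, 8 to 9 genes in complex I, 1 to 2 in complex II, 0 to 1 in complex III, 4 to 5 in complex IV and 2 to 3 in complex V, and 39 to 48 members with a candidate in every replicate left. UQCR-6.4L was lost without replicate 1 and without replicate 2, which left 0 bound L paralogs. Restricted to the 4876 highest peaks, pooled candidates gave 20 members and candidates in every replicate 15. Searching 500 bp to either side gave 49 members with the element core (55.7%, against 14.7% of all genes) and 71 with the initiator (80.7%, against 84.9%). It gave 7 with the E-box (7.95%, against 12.8%), so that members lay below all genes there and level with them in the main window (4.55%, against 4.24%). An 11-letter form of the element, whose letters were written from memory and not checked against a source, was in 4 members (4.55%, against 0.574%). Chosen after seeing the data, any start of a gene gave 52 members with the core (59.1%, against 17.5% of all genes), and leaving out Sdhaf3 kept 20 bound. In all, 71 of 100 alternative values were within 1.5 times the value reported. The cause of the changes was not tested beyond fewer peaks or starts being counted. No paired analysis was possible because there is 1 group. Since read totals are not used here, a member without a peak had none detectable in these lists, which does not show that CG4820 is absent there.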

Other observations

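Of the unbound members that start head to head with another gene, 3 are given here. ND-B16.6 (NDUFA13 in human) starts head to head with kdn, the citrate synthase gene, and had a pooled candidate at rank 14418 and a candidate in replicate 1 alone. ATPsynD starts head to head with mRpL55, a mitochondrial ribosomal protein gene, and had no candidate in any list, although an optimal summit with a signal of 207.8 lay 1422 bp away. ND-PDSW (NDUFB10 in human), head to head with msl-2, the dosage compensation gene, also had no candidate in any list. These genes were chosen after their values were seen.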
